A study of Mus musculus with 6 samples.

Results

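The regions described here are ATAC-seq peaks at the starts of long noncoding RNAs, away from the promoters of coding genes. A peak was taken when its midpoint lay within 1 kb of the transcription start site (TSS) of a transcript of a lincRNA, antisense or processed_transcript gene, and more than 1 kb from the TSS of every coding transcript. In all, 301 of 21698 autosomal peaks in WT cells and 294 of 22457 in Spen KO clone 3 cells met this rule. GENCODE for mm9 gives no gene the type antisense. Antisense transcripts are there listed under the other gene types, so 1232 lincRNA and 2437 processed_transcript genes on the autosomes made up the 3669 RNAs considered.

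ATAC-seq reads open chromatin through insertion of adapters by the Tn5 transposase. The study profiled haploid mouse embryonic stem cells (mESCs) of the HATX line, which carry an Xist transgene that doxycycline turns on, in 3 lines: HATX WT, Spen KO clone 2 and Spen KO clone 3. The 6 samples are untreated cells of each line and cells given doxycycline at 2 ug/mL for 48 hours. The files used here are 1 peak list for WT and 1 for clone 3, each from 2 technical replicates. The lists do not state their doxycycline state, each knockout line is 1 clone, and clone 2 was not analysed here. Both lists hold a peak at the start of Spen itself, with a score of 17.2 in WT and 16.8 in clone 3, so a peak at this promoter does not check the knockout.

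Long intergenic noncoding RNAs (lincRNAs) are spliced, polyadenylated transcripts that do not encode long proteins. Their promoters are commonly marked by open chromatin, as coding promoters are, but hold CpG islands less often. Antisense RNAs start on the opposite strand of another gene, and host RNAs are precursors of microRNAs or small nucleolar RNAs. Spen is an RNA-binding repressor that Xist recruits to the inactivating X chromosome.

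The labelled cell type was checked at the starts of mESC genes. Zfp42, a marker of naive pluripotency, had a peak within 1 kb of its start in both lists, with scores of 37.7 in WT and 34.1 in clone 3. Sox2 had one in WT, with a score of 14.8, and none in clone 3. Pou5f1, Nanog and Esrrb had no peak within 1 kb of a coding start in either list. The nearest peak lay 1073 bp away in WT and 1077 bp in clone 3 for Pou5f1, 4708 and 4721 bp for Nanog, and 1014 and 1101 bp for Esrrb.

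For each peak the authors give a value per replicate on a scale that is not named. The score is the mean of both values, and a percentile is the rank of a value among all autosomal peaks of the same list. There is 1 list per line, so no test between lines was made. Intervals are 95% intervals, Wilson for shares and binomial for medians, and cover counting error only. An exact two-sided permutation test of the replicates of both lines cannot go below p = 0.333.

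Most peaks at RNA starts were found in both lines. A peak was called shared where 1 bp or more of it was also covered in the other list. Of the 301 WT peaks, 225 were shared and 76 were found in WT only, a share of 25.2% (20.7 to 30.4%). Over all autosomal WT peaks the share was 26%. Of the 294 clone 3 peaks, 227 were shared and 67 were found in clone 3 only, which is 22.8% (18.4 to 27.9%), beside 28.4% over all autosomal clone 3 peaks. The WT share was thus near that of the whole list, and the clone 3 share was lower than that of its list, by a margin that some alternatives below bring within its interval. Peaks within 1 kb of a coding start were in WT only in 20.7% of 9133 cases and in clone 3 only in 13.0% of 8341. Other distal peaks were in WT only in 30.0% of 12264 cases and in clone 3 only in 37.9% of 13822. In clone 3 the share at RNA starts therefore lay between those of coding starts and other distal peaks, and in WT its interval held both.

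Counted by RNA, 369 of the 3669 had such a peak in at least 1 list. They were 231 with a peak in both lists, 71 in the WT list alone and 67 in the clone 3 list alone. Of the 71, 2 had a clone 3 peak within 1 kb that also lay near a coding start, and of the 67, 2 had such a WT peak. A further 594 WT and 524 clone 3 peaks lay within 1 kb of an RNA start but also within 1 kb of a coding start, and were not counted. Some of the RNAs have since been annotated otherwise. By name, RefSeq (GRCm38.p6) lists 24 of the WT peaks and 22 of the clone 3 peaks at genes it now calls coding, among them Enho, Fam169b and Smim5 (2210020M01Rik). Apela (Gm10664 in the mm9 annotation) is another, named after its value was seen. Apela encodes a small secreted peptide of embryonic stem cells. Its peak was found in WT only, with a score of 13.8.

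The strongest shared peaks ranked near the top of both lists. Gm15564, antisense to an intron of Kpna1, had the highest score of the peaks at RNA starts in each list. Its WT peak at chr16:35981540-35982025 had replicate values of 90.0 and 97.1, and the clone 3 peak had 88.8 and 70.6. The annotated start of Gm15564, at position 35981227, lies outside these peaks. Whether reads of similar sequence elsewhere in the genome add to this score was not tested. Gm10492, a lincRNA at chr17:95233639-95234491, had 68.4 and 74.7 in WT and 61.9 and 60.1 in clone 3. The 4932412D23Rik peak near Zbtb20, at chr16:42875034-42876430, had a score of 70.0 in each list. These 3 RNAs lay between percentiles 99.1 and 99.8 in both lists. Gm17372, 2235 bp from a start of the zinc finger gene Zfp53, scored 65.7 in WT and 54.2 in clone 3. The transcribed pseudogene 2610005L07Rik scored 62.3 and 53.5. Gm16046 was the sixth in WT, with 58.8, and 4933439K11Rik was the sixth in clone 3, with 50.01.

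Peaks found in WT only were led by Gm14225, a lincRNA on the opposite strand of an Epb4.1l1 intron. It lay at chr2:156273038-156273853 with replicate values of 32.6 and 32.1, at percentile 84.7, and the nearest clone 3 peak was 21264 bp away. The next was 2610037D02Rik, with 29.5 and 16.8. A separate start of the same RNA also had a peak in WT only, with a score of 15.9. Gm12984 followed with 20.8 and 25.1. Gm17233 had 21.7 and 19.95, in introns of Rcbtb2 and Rb1, and 93.1% of the 24-base stretches in its sequence occurred at least 10 times in the genome. Gm16956 had 24.4 and 15.8. The sixth was 1700020I14Rik, the RNA known as Cyrano (Oip5os1 in RefSeq), which is conserved among vertebrates and limits the microRNA miR-7. Its peak at chr2:119419831-119420447 had values of 25.1 and 14.7, and no clone 3 peak lay within 23326 bp.

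By percentile within its list, the highest peak found in clone 3 only lay below Gm14225 but above Cyrano, which was at 52.4. The highest, Gm15640, antisense to an intron of Phldb2, had replicate values of 17.4 and 21.7 at chr16:45936019-45936543, at percentile 58.6. Gm15416, antisense to an intron of Odz4, had 19.1 and 17.8 at chr7:103965500-103966047. A230071N21Rik, named Parvaos in RefSeq and antisense to Parva, had 16.8 and 19.6. The lincRNA 4930511A02Rik had 21.2 and 13.1, 1305 bp from a start of Vsnl1. A230004M16Rik had 16.9 and 15.3, with 80.5% of its sequence repeated, and Gm11314 had 18.5 and 13.7. The first 3 of these peaks lay in an intron of a coding gene on the strand opposite to the RNA.

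Both kinds of peak found in 1 list came mainly from the weaker part of the list. The median percentile was 19.6 (13.8 to 28.6) for WT-only and 13.0 (9.22 to 16.9) for clone 3-only peaks, against 61.9 and 58.7 for the shared peaks of those lists. Over all autosomal peaks found in 1 list only the medians were 20.3 in WT and 22.7 in clone 3, so the WT value is that of the whole list. Of 151 WT peaks at or above the median score of the list, 8 were in WT only (5.30%), and of 150 below it, 68 were (45.3%). In clone 3 these were 3 of 138 (2.17%) and 64 of 156 (41.0%). The whole lists also split by score, with 6.32% and 45.7% of all autosomal WT peaks and 9.27% and 47.6% of all clone 3 peaks in 1 list only. With the clone 3 list shortened to its 21698 top-scoring peaks, the length of the WT list, the shares at RNA starts were 26.2% of 301 in WT and 20.6% of 281 in clone 3, beside 26.7% and 26.6% over all autosomal peaks. Few of the differences were near misses in position. The nearest peak of the other list was at a median of 21175 bp (12220 to 33771) from WT-only and 17748 bp (13107 to 24159) from clone 3-only peaks. Over all autosomal peaks of these classes it was 21139 and 29419 bp.

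The clone 3-only peaks lay farther from the RNA start than the shared ones, and the WT-only peaks did not differ from the shared ones beyond their intervals. The midpoint lay at a median of 140 bp (112 to 167) from the start for shared WT peaks, 143 bp (112 to 174) for shared clone 3 peaks, 99.5 bp (80.0 to 175) for WT-only peaks and 236 bp (202 to 315) for clone 3-only peaks. Of clone 3 peaks within 200 bp of the start, 24 of 169 were in clone 3 only (14.2%, 9.73 to 20.3%). Of those farther away, 43 of 125 were (34.4%, 26.6 to 43.1%). In WT the shares were 52 of 194 (26.8%) and 24 of 107 (22.4%), and their intervals overlapped. At coding starts the clone 3-only share also rose with distance, from 10.7% within 200 bp to 21.5% beyond, and the WT-only share rose less, from 20.2% (19.3 to 21.1%) to 23.1% (21.2 to 25.1%). When the start itself lay inside the peak, 15.8% of 202 clone 3 peaks and 25.1% of 223 WT peaks were in 1 list only. Where the peak did not cover the start, 38.0% of 92 clone 3 peaks and 25.6% of 78 WT peaks were, so at RNA starts the shares differed beyond their intervals in clone 3 and not in WT.

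A pair of RNAs had a peak in each list at different places. The WT peak of 2310001H17Rik lay at one of its starts, at chr6:129187774-129188255, with replicate values of 13.1 and 22.1. Its clone 3 peak lay at chr6:129184759-129185050, 912 bp upstream of another start, with 12.4 and 12.6. For 4930461G14Rik both peaks were nearest to the same start. The WT peak lay 198 bp upstream of it, with 14.7 and 24.9, and the clone 3 peak 878 bp downstream, with 16.8 and 14.4. The peaks of these RNAs were 2724 and 668 bp apart, and both RNAs were singled out after their values were seen.

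By annotation, 228 of the WT and 215 of the clone 3 peaks lay between coding genes. A further 59 and 58 lay in introns of coding genes, and 14 and 21 in exons. Antisense transcripts were at the nearest start for 64 WT peaks, of which 16 were in WT only, and for 71 clone 3 peaks, of which 31.0% were in clone 3 only. For lincRNA transcripts the shares were 23.6% of 140 and 22.0% of 141. The intervals of these antisense and lincRNA shares overlapped. Clone 3 peaks whose RNA was not matched in RefSeq were in clone 3 only in 31.8% of 107 cases (23.7 to 41.1%). At RNAs that RefSeq lists as lncRNA this was 16.7% of 144 (11.5 to 23.6%), an interval that did not overlap. In WT these shares were 29.8% of 104 and 24.0% of 154, with intervals that overlapped. This split was singled out after its values were seen. Over all peaks at RNA starts the nearest coding start was at a median of 23953 bp in WT and 23570 bp in clone 3.

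The RNAs with the most peaks had several starts or split peaks. D230017M19Rik had 5 over both lists, all shared, around chr1:72282883-72283838 and chr1:72290336-72291297, with WT scores of 21.0 and 30.0. At the first place clone 3 had 2 peaks over the WT peak, with scores of 15.9 and 7.92. 4833407H14Rik, 4930412M03Rik and 5133400J02Rik had 4 each, 2 in each list.

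Named RNAs were taken from lists of imprinted RNAs, hosts of small RNAs, broadly expressed RNAs, RNAs beside developmental regulators and RNAs named for pluripotency. Of 69 that the annotation holds on the autosomes, 10 had a peak in both lists, 6 in WT only and 2 in clone 3 only. Over all 3669 RNAs the counts were 231, 71 and 67, and with so few named RNAs no lean to either list can be read from the 6 and 2. Another 9 had a peak that also lay near a coding start, and 42 had none. The names Kcnq1ot1, Peg13, Snhg14, Zfas1, Lincppint, Norad, Pantr1, Pantr2 and Panct1 were not matched.

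Among 18 hosts of small RNAs, 5 had a peak in both lists. Mir22hg (2210403K04Rik), host of miR-22, scored 29.5 in WT and 28.5 in clone 3. Mir205hg (4631405K08Rik) scored 31.6 and 30.4. Mir17hg, precursor of the miR-17 cluster that promotes proliferation, had replicate values of 21.4 and 21.3 in WT and 17.6 and 25.5 in clone 3. In none of these did the replicate percentiles of the lines separate. Snhg4 had 20.2 and 16.1 in WT and 11.4 and 11.0 in clone 3, and its percentile fell by 30.1 points, from 43.8 to 13.7. Dleu2, host of miR-15a and miR-16, had a shared peak at one start, with scores of 12.01 in WT and 7.98 in clone 3. At another start of Dleu2 a peak was found in WT only, with 10.8 and 12.2. Snhg5 and Snhg15 (Gm11974), which host small nucleolar RNAs, had peaks in WT only, with values of 16.0 and 16.8 and of 16.7 and 14.6. Gas5, Snhg1 and Snhg9 had a peak in the WT list alone as well, but near a coding start. The remaining 8 hosts, such as Snhg3, Snhg7 and Snhg12, had no peak.

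Of 11 RNAs named for pluripotency, 2 had peaks in both lists. Platr22 (Gm16880) had replicate values of 33.8 and 28.6 in WT and 25.2 and 26.8 in clone 3. Its percentiles were 83.0 and 79.1, and those of the replicates overlapped between the lines. Platr20 (5133400J02Rik) had 24.6 and 18.6 in WT and 15.8 and 13.7 in clone 3 at its stronger start, where the percentile fell by 28.4 points. Platr4 (C430002E04Rik) had a peak in WT only, with 13.4 and 16.4. Platr9 (2410114N07Rik), with 12.3 and 13.2, and Platr27 (2410019O14Rik), with 14.2 and 9.69, had peaks in clone 3 only. The other 6, Lncenc1 among them, had none within 1 kb of a start.

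Of 7 broadly expressed RNAs, Dancr (2700023E23Rik) was shared, with scores of 35.4 in WT and 32.7 in clone 3, at percentiles 88.3 and 89.3. Cyrano and Pvt1 were in WT only. The Pvt1 peak, beside Myc, was among the weakest of its list, with values of 7.79 and 7.58. Tug1 had peaks near a coding start, with scores of 27.7 and 26.7 at percentiles 76.6 and 80.6, and Malat1, Neat1 and Miat had none.

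Of 27 RNAs beside developmental regulators, 21 had no peak in either list, among them Hotair, Hottip, Halr1, Fendrr, Rmst, Sox2ot and Six3os1. Another 4 had a peak in both lists that also lay near a coding start. The percentile of the highest such peak was 30.5 in WT and 59.2 in clone 3 at Foxd2os (9130206I24Rik), and 18.3 and 57.4 at Wt1os (AI314831). It was 53.2 and 33.0 at Hotairm1 (Gm15051), and 45.5 and 49.1 at Vax2os (Vax2os1), so these went both ways. Replicates were not compared for these peaks. Tunar (2810011L19Rik), which is needed for pluripotency and neural fate in mESCs, was shared. The list holds this RNA although its nearest coding start, of Tcl1, lay 113915 bp away. Tunar had replicate values of 29.9 and 30.6 in WT and 20.6 and 22.4 in clone 3, and its percentile was 81.4 and 66.8. Within the Hoxd cluster, the start of Hoxd3os1 (1700109F18Rik) in an intron of Hoxd3 had a peak in WT only, with 8.91 and 9.26. Of 6 imprinted RNAs, Meg3 of the Dlk1-Dio3 region was shared, with 15.9 and 17.7 in WT and 14.7 and 17.4 in clone 3. These ranges overlapped. Nespas had a WT peak near a coding start, and H19, Airn, Rian and Mirg had none.

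For the shared peaks, rank was compared between the lists. Each peak was paired with the one it overlapped most, and 226 pairs had at least 1 peak that met the rule, with 223 where both did. The median percentile in clone 3 minus that in WT was -0.83 points (-3.65 to 0.20), an interval that holds 0. It was -0.08 points over all 16022 shared autosomal pairs, -2.79 at coding starts and 3.14 at other distal peaks. The replicate percentiles of both lines did not overlap in 91 pairs. Clone 3 was above WT in 34 of the 226 (15.04%), against 22.9% of all shared autosomal pairs, and below WT in 57 (25.2%), against 22.9%. At coding starts the shares were 13.4% above and 29.3% below. The split at RNA starts was closer to that at coding starts than to the 31.2% above and 17.4% below at other distal peaks.

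The largest falls among pairs with separate replicates began with 2210020M01Rik, whose percentile went from 77.4 in WT to 30.7 in clone 3. RefSeq now calls this gene, Smim5, coding. Its replicate values were 21.4 and 34.6 in WT and 18.5 and 10.8 in clone 3, so the spread within each line was wide. Gm13817 fell from percentile 80.3 to 34.9, with 30.6 and 28.5 in WT and 14.2 and 16.6 in clone 3. Enho, which encodes the secreted peptide adropin, fell from 62.7 to 21.8, with 26.1 and 18.9 against 13.0 and 12.9. Gm4262 fell by 31.0 points, G730013B05Rik by 30.9 and 1700012C14Rik by 30.8. The largest rise was at Fam169b, which RefSeq also calls coding, from percentile 9.35 to 52.1. Its values were 10.1 and 11.8 in WT and 16.2 and 20.3 in clone 3. Gm16255 rose by 33.2 points, Gm13580 by 32.8, Gm13974 by 30.9, Gm20429 by 28.1 and Gm13490 by 25.5. At Gm13490 the values were 22.9 and 20.04 in WT and 29.9 and 27.8 in clone 3.

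On chromosome 1 between 100 and 130 Mb, 2 RNAs had shared peaks, and both were higher in clone 3. The values of 9330185C12Rik were 25.2 and 21.1 in WT and 31.1 and 34.2 in clone 3. Those of B230209K01Rik were 23.2 and 28.2 in WT and 42.0 and 45.8 in clone 3. The percentiles rose from 64.8 to 89.3 and from 72.1 to 96.4, with no overlap of replicates. Clone 3 was above WT in this way in 22.9% of all shared autosomal pairs and in 15.04% of the 226 pairs at RNA starts. With the segment left out, the share at RNA starts was 14.3% of 224 pairs, and the median rank shift was -0.87 points. Other peaks of the segment were not compared, so whether the rise is particular to these RNAs was not tested. The choice of this segment may rest on earlier results of these data, so the 2 rises are no independent evidence.

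A cluster of 4 shared peaks lay on chromosome 13, between 66304304 and 66620735, the most within 500 kb of any place, and was singled out after its values were seen. The peaks were at Gm17514, Gm17735, Gm17656 and Gm16986, each within 60 bp of the start. Scores in WT were 34.3, 40.9, 48.7 and 55.9, and in clone 3 they were 22.4, 35.1, 39.7 and 39.3. By rank within each list, only Gm17514 fell far, from percentile 87.1 to 69.5. Gm16986 went from 97.9 to 94.3, and at Gm17735 and Gm17656 the replicate percentiles of the lines overlapped. From 41.5 to 63.96% of the WT peak sequence there was repeated, by the same count of 24-base stretches. Over all 301 WT peaks, 7 (2.33%) were multi-copy, with at least 50% of the sequence repeated, as were 8 of 294 (2.72%) in clone 3. Over all autosomal peaks the shares were 5.36% and 9.05%.

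Base composition was close to that of the whole lists, and lay between those of coding starts and other distal peaks. Within 300 bp around the midpoint the median GC content was 58.3% in WT and 58.2% in clone 3, against 57.7% and 57.3% over all autosomal peaks. It was 66% at coding starts and 53% at other distal peaks in WT, and 65.3% and 52.7% in clone 3. CpG-rich windows, with over 50% GC and an observed to expected CpG ratio above 0.6, made up 38.9% of the WT and 37.1% of the clone 3 peaks, beside 40.7% and 36.9% of the whole lists. They made up 79.9% of coding starts and 11.5% of other distal peaks in WT, and 78.2% and 11.9% in clone 3. Clone 3-only peaks were CpG-rich in 29.9% (20.2 to 41.7%) of cases and shared ones in 39.2% (33.1 to 45.7%), intervals that overlap. Over all autosomal clone 3 peaks of these classes the shares were 20.5% and 43.4%, farther apart. WT-only peaks were so in 39.5% of cases and shared WT ones in 38.7%, beside 32.1% and 43.7% of all autosomal WT peaks of these classes.

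The same 300 bp windows were searched on both strands for 8 motifs: ATGCAAAT (octamer), TCAAGGTCA (Esrrb), GGGCGGGG (Sp and Klf), CCGGAAGT (ETS), TGACGTCA (CRE), TGCGCATGC (Nrf1), AGGGGGCGC (part of the CTCF motif) and TATAAA. In WT the shares at RNA starts were 2.99%, 0.33%, 21.9%, 3.65%, 3.65%, 1.33%, 1.66% and 6.31%, in that order. Over all autosomal WT peaks they were 3.24%, 0.55%, 20.02%, 3.80%, 1.75%, 1.30%, 1.70% and 6.13%. In clone 3 the shares were 2.38%, 0.34%, 19.7%, 4.42%, 1.02%, 1.70%, 2.04% and 5.44%, beside 3.29%, 0.73%, 17.6%, 3.33%, 1.42%, 1.10%, 1.71% and 7.004% over the whole list. In clone 3 all 8 shares lay between those of coding starts and other distal peaks, and in WT all but that of CRE did. The Sp and Klf letters were in 35.7% of coding starts and 8.29% of other distal peaks in WT. In clone 3 they were in 35.2% and 6.97%. The CRE letters were in 3.05% of coding starts and 0.73% of other distal peaks in WT. A match describes the letters and is not a bound site.

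The CRE letters, which the factor CREB can bind, were held by 7 of 76 WT-only peaks (9.21%, 4.53 to 17.8%) and by 4 of 225 shared WT peaks (1.78%, 0.69 to 4.48%). They were in 1.68% of all WT-only autosomal peaks and in 3.12% of those at coding starts, and in 0 of 67 clone 3-only peaks, where the interval reaches 5.42%. Over all clone 3-only autosomal peaks the share was 0.454%, so that count of 0 does not set these peaks apart. This motif was singled out after the values of all 8 were seen. The TATAAA letters were in 10 of 76 WT-only peaks (13.2%), 9 of 225 shared WT peaks and 7 of 67 clone 3-only peaks (10.4%). Over all autosomal peaks they were in 6.06% of WT-only and 8.88% of clone 3-only ones, so the clone 3 share was near that of its list. The 7 RNAs with the CRE letters include the hosts Snhg15 (Gm11974) and Dleu2. The motif lay from 20 to 149 bp upstream of the start in 5 of them and 714 and 785 bp downstream in 1700016P03Rik and Dleu2. The 60 bases around each motif are shown because these peaks were absent from the clone 3 list, on the strand of the RNA in mm9, with the CRE letters in capitals. The window of 1700016P03Rik holds the letters 2 times, and capitals mark 1 of these. They lie at chr8:113669499-113669558, chr11:74986746-74986805, chr16:21794345-21794404, chr11:6428818-6428877, chr2:25996031-25996090, chr5:104538174-104538233 and chr14:62300238-62300297, in the order of the lines.
9430091E24Rik: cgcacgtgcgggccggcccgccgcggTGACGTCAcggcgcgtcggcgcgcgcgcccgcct
1700016P03Rik: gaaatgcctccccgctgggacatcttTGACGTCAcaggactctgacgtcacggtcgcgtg
1300002E11Rik: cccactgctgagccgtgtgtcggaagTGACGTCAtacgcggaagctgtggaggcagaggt
Gm11974: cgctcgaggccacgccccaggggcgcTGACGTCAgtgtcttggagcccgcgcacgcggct
C330006A16Rik: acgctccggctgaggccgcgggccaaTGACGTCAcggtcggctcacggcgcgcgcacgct
Gm16990: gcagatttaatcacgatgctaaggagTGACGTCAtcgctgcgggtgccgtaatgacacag
Dleu2: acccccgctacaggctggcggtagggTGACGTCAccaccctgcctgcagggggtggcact

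High-scoring peaks of each class are shown as the 300 bases around the midpoint in mm9, on the strand of the RNA, to set their sequence beside their score. Capitals mark any of the 8 motifs. The windows of the shared peaks are chr16:35981632-35981931 (Gm15564) and chr17:95233915-95234214 (Gm10492), and neither holds a motif. The annotated start of each of these RNAs lies outside its window.
Gm15564: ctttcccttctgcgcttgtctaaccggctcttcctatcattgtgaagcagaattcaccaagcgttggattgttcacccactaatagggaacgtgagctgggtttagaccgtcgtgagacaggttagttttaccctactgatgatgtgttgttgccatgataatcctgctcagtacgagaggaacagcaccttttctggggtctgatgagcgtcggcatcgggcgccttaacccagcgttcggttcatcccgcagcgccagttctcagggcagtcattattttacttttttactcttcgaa
Gm10492: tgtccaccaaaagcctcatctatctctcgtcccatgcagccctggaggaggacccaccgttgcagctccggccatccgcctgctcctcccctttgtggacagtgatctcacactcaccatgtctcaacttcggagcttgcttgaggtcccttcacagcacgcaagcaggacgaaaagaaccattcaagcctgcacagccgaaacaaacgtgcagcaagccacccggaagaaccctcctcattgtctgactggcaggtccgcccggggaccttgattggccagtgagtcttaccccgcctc

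The window of the highest peak found in WT only is chr2:156273295-156273594 (Gm14225). It holds GGGCGGGG once, its annotated start is at base 251 of the window, and its GC content is 58.7%.
Gm14225: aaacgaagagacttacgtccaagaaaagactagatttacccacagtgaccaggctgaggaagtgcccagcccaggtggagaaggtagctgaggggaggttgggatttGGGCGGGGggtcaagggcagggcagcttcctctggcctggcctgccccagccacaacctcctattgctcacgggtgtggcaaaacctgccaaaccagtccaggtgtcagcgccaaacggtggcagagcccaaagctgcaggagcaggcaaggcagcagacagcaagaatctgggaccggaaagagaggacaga

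The windows of the peaks found in clone 3 only are chr16:45936131-45936430 (Gm15640) and chr7:103965623-103965922 (Gm15416). Gm15640 holds the Nrf1 letters once, in reverse, and Gm15416 holds none. They have 3 and 4 CpG dinucleotides, against 7 in the Gm14225 window, 16 in that of Gm15564 and 13 in that of Gm10492.
Gm15640: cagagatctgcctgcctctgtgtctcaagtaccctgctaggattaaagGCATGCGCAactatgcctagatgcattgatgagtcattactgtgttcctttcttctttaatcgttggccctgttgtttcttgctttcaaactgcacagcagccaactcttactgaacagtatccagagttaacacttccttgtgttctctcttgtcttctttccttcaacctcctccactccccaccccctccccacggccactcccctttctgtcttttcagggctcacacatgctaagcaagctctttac
Gm15416: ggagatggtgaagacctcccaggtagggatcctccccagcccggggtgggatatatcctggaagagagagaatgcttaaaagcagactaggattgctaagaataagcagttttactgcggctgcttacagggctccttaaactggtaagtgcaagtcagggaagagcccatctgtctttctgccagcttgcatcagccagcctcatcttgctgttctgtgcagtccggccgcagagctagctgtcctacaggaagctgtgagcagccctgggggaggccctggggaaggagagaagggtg

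Near the thresholds, the WT peak of Gm17437 lay 981 bp from the RNA start, with a score of 20.6, and was counted, and one at AY512931 lay 1003 bp away, with 8.58, and was not. In clone 3, Gm14012 at 990 bp was counted, with a score of 20.9, and a peak 1009 bp from Malat1, with 8.20, was not. Gm14012 fell on both sides: its WT peak lay 1008 bp from the start, with 28.0. For the distance to coding starts, Gm2018 at 1014 bp in WT (score 15.6) and Gm9017 at 1093 bp in clone 3 (25.01) were counted. The WT peak of 6430503K07Rik at 998 bp (8.38) and the clone 3 peak of Gm15663 at 978 bp (13.7) were not.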

How the data were processed

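For each technical replicate the authors trimmed adapters (CutAdapt), aligned the reads (Bowtie2, mm9), kept uniquely aligned proper pairs without duplicates (Picard) and called ATAC-seq peaks (MACS2). Peaks that passed an Irreproducible Discovery Rate threshold between replicates were deposited with a length, a value for each replicate whose scale is not named, and that rate, at most 0.0500 here. Peaks in repeated sequence can be missed where only unique reads are kept.

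Both replicate values were averaged to a score. Peaks were placed with GENCODE vM1 starts and overlapped in Python 3.11.15 with pandas 2.3.3, pysam 0.24.0, scipy 1.17.1, samtools 1.23.1, numpy 2.4.6 and numba 0.67.0. Current names came from RefSeq. Overlap, distances, ranks and intervals were tested on simulated data. Most named RNAs are those of the lists, the 6 highest scores per class, the 6 largest rank shifts each way, the RNAs with most peaks and those beside the thresholds. Further RNAs are named with the peaks at different places, the chromosome segment, the cluster of shared peaks, the CRE letters and the X chromosome. Apela is also named outside these rules. Those singled out after their values were seen are marked where they are named. The members and lists were chosen with earlier results of these data known.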

Additional observations from a re-analysis of the deposited data

How the results depend on the processing

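Of 73 values under the alternatives, 64 moved by less than their interval or by under 1.5 times. With only peaks at or above the median score kept in both lists, 151 WT and 138 clone 3 peaks were left, as the setting itself removes weaker peaks, and the shares found in 1 list only were 20.5% and 11.6%, beside 21.3% and 23.9% of all autosomal peaks under that setting. With lincRNA genes only, 176 and 161 peaks were left, and the median rank shift was -2.99 points. Clone 3 was then above WT in both replicates in 16 shared pairs and below in 39, beside 34 and 57 in the main setting. No share of pairs is given for this setting. The counts thus cannot be set against the 22.9% above and 22.9% below over all shared autosomal pairs. With a gap of at least 10 percentile points, 9 pairs (3.98%) had clone 3 above and 20 (8.85%) below, against 8.94% and 7.84% of all shared autosomal pairs. The median rank shift was from -1.48 to -0.77 points with 1 replicate left out. Leaving out RNAs that RefSeq lists as coding, chosen after seeing the data, left 277 and 272 peaks and shares of 25.3% and 23.2%. The interval of the latter then reached 28.5%, and within 2 kb of an RNA start that of the clone 3-only share reached 29.7%, both above the 28.4% of the whole list. No paired analysis was possible because the lists give 1 combined peak set per line and no test was made. The read depth is unknown, and it limits which weak peaks a list could hold.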

Other observations

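On the X chromosome, outside the counts above, 26 WT and 24 clone 3 peaks met the same distances. Of these, 6 were in WT only (23.1%, 11.0 to 42.1%) and 4 in clone 3 only (16.7%, 6.68 to 35.9%). Over all X peaks the shares were 18.3% of 1000 and 31.8% of 1199, so both lie within the wide intervals. Around Xist, the start of Jpx (Enox in the annotation) had a peak in WT only, with replicate values of 16.7 and 13.6. The start of Ftx (B230206F22Rik) had one in clone 3 only, with 19.04 and 15.98, as did a place 922 bp from a start of Tsix, with 9.49 and 11.3. Firre (6720401G13Rik), which shapes chromatin on the X chromosome, was shared, with 45.6 and 51.6 in WT and 30.2 and 36.8 in clone 3. By score its percentile among the X peaks of the list was 94.05 in WT and 84.9 in clone 3. Because the doxycycline state of the lists is not stated, these values cannot be assigned to a state of Xist.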
